A study of Mus musculus with 6 samples.

Results

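The strongest Arid3a-labelled CUT&Tag regions found inside the bodies of protein-coding genes of mouse vascular smooth muscle cells numbered 562. Peaks of 6 deposited lists were merged where they overlapped by at least 1 bp, which gave 79295 regions, of which 29602 had a peak in every list. The regions were chosen by the authors' −log10 q of every library: peaks were ranked by it within each list, and a region took its highest peak in that list. A region was taken if it stood at percentile 90 or more in all 6 lists and lay wholly within a protein-coding gene of at most 300 kb, more than 5 kb from both ends of that gene. Of the 3082 regions that reached the percentile in all 6 lists, the 562 intragenic regions were 18.2%. They were 7.43% of the 7561 shared regions with the same kind of position, and the other 6999 shared intragenic regions served for comparison.

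The siRNA-labelled group held 3 libraries of cells that received si-Arid3a#1, si-Arid3a#2 or si-Arid3a#3, here libraries 1 to 3, and the NC-labelled group held 3 libraries of cells that received a negative control siRNA. All were primary mouse vascular smooth muscle cells bought from Procell, transfected for 24 hours and profiled from 10000 cells with an antibody named as Arid3a. The growth protocol describes a 36-hour angiotensin II model of abdominal aortic aneurysm, but the labels do not say which libraries were exposed to it, and no library without antibody was analysed here. The treatment label alone does not tell whether #1 to #3 are different siRNAs or repeats of 1. Nothing in the labels ties the libraries of a group to separate cultures. P-values therefore describe the variation among these 6 libraries, which may be technical in origin.

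Arid3a belongs to the ARID family of proteins, named after the AT-rich interaction domain through which they bind DNA. CUT&Tag directs a transposase to the antibody's target on chromatin, and the fragments cut there are sequenced. Strong signal within a gene body can lie at enhancers, at alternative promoters or at genes nested in the host, and the interval alone does not say which gene it acts on. Smooth muscle cells of the vessel wall depend on actin, focal adhesions and small GTPases for contraction and movement.

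The 562 regions lay in 488 host genes, which was 3.64% of the 13402 protein-coding genes long enough to host one and no longer than the limit. A single region was found in 433 hosts, 2 regions in 36, 3 in 14, 4 in 4 and 6 in 1. Of the 562 regions, 17 also lay within 1000 bp of an end of another protein-coding gene, and 7 lay within 2 overlapping hosts. Coordinates are those of mm10, and gene positions are those of RefSeq on GRCm38.p6, the assembly of mm10. A RefSeq gene interval spans all annotated transcripts of the gene, so an intragenic region can lie over the first exon of a shorter transcript.

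Part of the regions lay over such an internal start. The start of transcription in the RefSeq promoter table fell within the region for 92 of the 416 regions whose host is in that table (22.1%), against 425 of 5505 other shared intragenic regions (7.72%). The start belonged to the host itself in 79 of the 416 (19.0%), against 338 of the 5505 (6.14%). A wider region can hold a start more readily, and these shares were not matched for region width. Below are the 250 bases upstream of the start for the 7 regions among the 25 highest-ranked whose host's own start lies within them, and for the Arntl and Runx1 regions. They are shown because these are the stretches of the strongest intragenic regions that carry an annotated promoter. Sequences are from the RefSeq promoter table on GRCm38.p6, written 5′ to 3′ on the strand of the gene. Capitals mark matches on either strand to AP-1 TGANTCA, CRE TGACGTCA, TEAD GGAATG, ETS CCGGAAG, SP GGGCGG, NFY CCAAT and E-box CACGTG.
Dlgap4 (scaffold protein), chr2:156720715-156720964, plus strand: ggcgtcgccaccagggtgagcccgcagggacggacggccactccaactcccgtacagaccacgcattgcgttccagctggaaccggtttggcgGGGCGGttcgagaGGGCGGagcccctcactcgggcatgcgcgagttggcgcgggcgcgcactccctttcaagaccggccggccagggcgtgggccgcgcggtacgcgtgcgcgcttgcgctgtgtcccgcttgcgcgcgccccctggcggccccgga
Lrif1 (heterochromatin factor), chr3:106721432-106721681, plus strand: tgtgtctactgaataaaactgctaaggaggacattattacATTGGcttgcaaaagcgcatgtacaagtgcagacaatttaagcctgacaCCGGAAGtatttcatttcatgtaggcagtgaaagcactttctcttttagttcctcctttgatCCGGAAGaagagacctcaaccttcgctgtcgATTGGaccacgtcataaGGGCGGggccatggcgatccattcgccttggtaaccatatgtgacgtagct
Psma3 (proteasome subunit), chr12:70974373-70974622, plus strand: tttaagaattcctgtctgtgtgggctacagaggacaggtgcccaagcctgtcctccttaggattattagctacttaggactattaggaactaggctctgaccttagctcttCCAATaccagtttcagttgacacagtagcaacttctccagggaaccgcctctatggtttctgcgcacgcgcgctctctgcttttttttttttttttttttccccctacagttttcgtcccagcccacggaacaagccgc
Slc3a2 (amino acid transporter chain), chr19:8713898-8714147, minus strand: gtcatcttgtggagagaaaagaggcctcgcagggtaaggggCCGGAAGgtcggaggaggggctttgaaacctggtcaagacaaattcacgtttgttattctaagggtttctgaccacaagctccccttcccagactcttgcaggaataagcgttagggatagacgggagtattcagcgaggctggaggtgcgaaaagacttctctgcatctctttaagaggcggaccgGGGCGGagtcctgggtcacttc
Lmna (lamin A/C), chr3:88503353-88503602, minus strand: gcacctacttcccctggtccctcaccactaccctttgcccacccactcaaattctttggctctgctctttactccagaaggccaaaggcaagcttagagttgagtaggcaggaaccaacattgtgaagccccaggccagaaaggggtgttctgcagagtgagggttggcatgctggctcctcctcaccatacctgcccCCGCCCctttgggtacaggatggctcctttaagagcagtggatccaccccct
Acot8 (peroxisomal thioesterase), chr2:164804882-164805131, minus strand: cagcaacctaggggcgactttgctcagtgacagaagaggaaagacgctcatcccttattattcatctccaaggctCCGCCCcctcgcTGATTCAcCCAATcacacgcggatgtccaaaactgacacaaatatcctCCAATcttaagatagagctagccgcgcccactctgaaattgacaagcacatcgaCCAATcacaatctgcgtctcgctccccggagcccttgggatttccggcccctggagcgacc
Lrrfip1 (nucleic acid binding protein), chr1:91053194-91053443, plus strand: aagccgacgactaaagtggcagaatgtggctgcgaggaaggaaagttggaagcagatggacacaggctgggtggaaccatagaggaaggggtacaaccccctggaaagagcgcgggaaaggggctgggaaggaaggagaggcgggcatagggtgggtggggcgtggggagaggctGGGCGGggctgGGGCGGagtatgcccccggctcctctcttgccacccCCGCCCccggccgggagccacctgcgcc
Arntl (circadian factor), chr7:113207215-113207464, plus strand: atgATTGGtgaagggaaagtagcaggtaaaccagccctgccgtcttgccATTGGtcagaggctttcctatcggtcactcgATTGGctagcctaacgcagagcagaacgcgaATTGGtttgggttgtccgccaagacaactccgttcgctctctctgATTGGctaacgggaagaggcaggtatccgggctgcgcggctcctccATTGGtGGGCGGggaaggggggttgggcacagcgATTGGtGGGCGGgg
Runx1 (transcription factor), chr16:92697330-92697579, minus strand: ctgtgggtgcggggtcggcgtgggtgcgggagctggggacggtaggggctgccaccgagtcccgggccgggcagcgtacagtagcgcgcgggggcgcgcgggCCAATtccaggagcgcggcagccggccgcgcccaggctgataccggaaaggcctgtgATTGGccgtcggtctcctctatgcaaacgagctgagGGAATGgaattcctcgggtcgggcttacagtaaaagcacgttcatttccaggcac
The whole 250 bases lie within the region for 7 of these 9 genes, while 70 bases of the Lrif1 window and 157 of the Psma3 window do. Some summits lay outside the printed bases. The median summit was 793, 293 and 246 bp downstream of the start at Slc3a2, Lrif1 and Psma3. It was 423 and 293 bp upstream at Lrrfip1 and Acot8. The Acot8 region also holds the start of Zswim3, 60 bp from the summit. The Arntl window held 7 CCAAT matches and 2 GGGCGG matches. The Acot8 window held 3 CCAAT matches, 1 GGGCGG match and 1 AP-1 match, and was the only one of the 9 with an AP-1 match. The Lrif1 window held 2 ETS matches, 1 GGGCGG match and 2 CCAAT matches. The Dlgap4 window was 74.0% G and C and held 2 GGGCGG matches, whereas the Lrif1 window was 45.6% G and C.

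Across all regions, 93 lay over an annotated start, including the 1 whose host is not in the table. Their windows, taken as 1 per region from 250 bases before to 50 bases after the start nearest the summit, had a median G and C content of 61.3%, against 52.7% over all 32851 windows of the table. The median number of CpG dinucleotides was 20, against 7. The letters GGGCGG were in 68.8% of the 93 windows, against 35.7% of all windows, CCGGAAG in 16.1% against 8.86%, and CCAAT in 47.3% against 37.4%. AP-1 letters were in 7.53% of the 93 windows and in 7.81% of all windows, and E-box letters in 7.53% and 7.15%. The letters ATTAAA, the AT-rich motif searched for ARID3A, were in 2 of the 93 windows (2.15%), against 13.9% of all windows, and TATAAA was in 6.45% against 13.6%. TEAD letters were in 8.60% against 14.7%, RUNX letters TGTGGT in 12.9% against 16.8%, NFI letters TTGGC in 49.5% against 46.7% and TGACGTCA in 1.08% against 1.79%. Letters of different base composition are met at different rates in windows of different G and C content, and no window was matched for it. Windows of the other shared intragenic regions over a start were not examined, so these values are not shown to be particular to the 93. The NFI letters and the reverse of the CCAAT letters share the run TTGG, so their matches can overlap. A match of letters is a description of the window and not a binding site.

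The share of regions over a start was larger in stronger regions. It was 4.20% of the 1261 shared intragenic regions whose lowest percentile over the 6 libraries was under 25, and 11.4% of the 806 regions at 75 to 90. Among the 562, it was 19.7% of 228 at 90 to 95, 20.3% of 118 at 95 to 98, 37.0% of 27 at 98 to 99, and 30.2% of 43 at 99 or more. The last 2 bins are small. Since percentile chose the regions and their width was not matched, this order is a description. Summits lay close to the starts: the summit of 75 of the 93 regions was within 250 bp of the nearest start and that of 88 within 500 bp, with a median of 20 bp upstream (−20 bp in the direction of transcription). The regions over a start were 17.3 kb (median) from the outer start of the host, and the regions over no start 35.9 kb. Of the 92 counted above, 13 lay over a start of another gene alone, such as the Zmiz1 region over the lncRNA gene 4931406H21Rik and the Myof region over the lncRNA gene Gm52396.

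Library facts bear on every value below. Each list held 43834 to 51682 peaks. Reads were not used here, so depth was gauged from the number of fragments that cover a peak's summit and the local background, both solved from the authors' fold and −log10 p for each peak. The lowest background of a list was 0.475, 0.482 and 0.538 fragments per base in siRNA-labelled libraries 1 to 3, and 0.670, 0.673 and 0.621 in NC-labelled libraries 1 to 3, so group and coverage cannot be told apart. The peak names inside all 6 lists carry the name of the other group, and every direction between the groups would turn if those names were right. A peak within 1000 bp of an end of the gene was found for 7 to 8 of 10 smooth muscle marker genes in each library, 0 to 2 of 5 endothelial markers, 1 to 2 of 6 blood cell markers, 0 of 3 epithelial markers and 0 to 1 of 3 neuronal markers. These are counts of occupied genes and not of transcripts. For comparison, 56.8 to 59.6% of all 13402 protein-coding genes over 10 kb and at most 300 kb had such a peak in each library.

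The rule fixes the strength of the regions, which is therefore described and not tested. Their median was 72, 80 and 86 summit fragments in siRNA-labelled libraries 1 to 3, and 97, 102.5 and 94 in NC-labelled libraries 1 to 3. Over all 29602 shared regions the medians were 21, 24 and 26 in the siRNA-labelled and 29, 30 and 28 in the NC-labelled libraries. Gene-end regions at the same percentile had medians of 74, 83 and 91 in the siRNA-labelled and 99, 106 and 95 in the NC-labelled libraries. The median fold over local background of the intragenic regions was 11.6, 12.3 and 12.2 in the siRNA-labelled libraries, and 11.5, 11.6 and 11.5 in the NC-labelled libraries. Taken by each region's median over the 6 libraries, fragments ranged between 49.5 and 524 with a median of 88 and quartiles of 72.6 and 113. Only 15 regions held at least 200 fragments in every library.

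The lowest percentile over the 6 libraries was 90 to 92 for 139 regions, 92 to 95 for 175, 95 to 98 for 154, 98 to 99 for 41 and 99 or more for 53. The regions just inside the threshold lay in Myof (90.02), Cald1 (90.02) and Tpm1 (90.03), and those just outside it in Zfp800 (89.995), Wls (89.95) and Fbln1 (89.92). The threshold cuts through a continuum, and 2 smooth muscle cytoskeleton genes, Cald1 and Tpm1, entered by a small margin.

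The highest-ranked region lay in Rab31, which encodes a small GTPase of vesicle traffic, on chromosome 17 from 65737352 to 65738311, 34.9 kb from the start of the gene. It held 443, 489 and 561 summit fragments in siRNA-labelled libraries 1 to 3, and 534, 568 and 514 in NC-labelled libraries 1 to 3. The groups overlapped, and the region's fold was 17.2 to 20.6. Rab31 hosted a further pair of regions with 59 to 100 fragments.

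The next was the Dlgap4 region, over an internal start on chromosome 2 from 156719787 to 156721282, with 330, 381 and 377 fragments in the siRNA-labelled and 417, 406 and 395 in the NC-labelled libraries. Dlgap4 encodes a scaffold protein of the postsynaptic density family. All NC-labelled values of this region were higher before scaling for coverage. Once scaled to the median of all shared regions, all its siRNA-labelled values were higher instead. The Lrif1 region, over a start on chromosome 3 from 106721612 to 106722491, held 273, 265 and 280 fragments in the siRNA-labelled libraries and 318, 355 and 330 in the NC-labelled libraries. The Psma3 region, over a start on chromosome 12 from 70974466 to 70975257, held 248, 255 and 286 in the siRNA-labelled and 326, 366 and 298 in the NC-labelled libraries. Psma3 encodes a subunit of the proteasome core and Lrif1 a nuclear factor of heterochromatin. As at Dlgap4, the NC-labelled values of both lay above the siRNA-labelled ones without scaling, the order that the background coverage also has. Once scaled, the groups overlapped at both Lrif1 and Psma3.

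The other 18 of the 25 highest-ranked held no start of the table, which has no entry for 6 of their hosts, among them Rhbdf2, Spidr, Sfi1, Pfdn1 and Plec. The Ip6k3 region, in a gene for an inositol phosphate kinase, held 278, 293 and 310 fragments in the siRNA-labelled libraries and 329, 356 and 319 in the NC-labelled libraries. The region in Frmd6, which encodes a FERM-domain protein of the cell cortex, held 207, 217 and 242 in the siRNA-labelled and 250, 272 and 239 in the NC-labelled libraries, and its summit moved by 3 bp at most over the 6 libraries. The Cdc42bpb region held 183, 262 and 247 in the siRNA-labelled and 267, 268 and 248 in the NC-labelled libraries. Cdc42bpb encodes a kinase that acts downstream of the GTPase Cdc42. At Frmd6 and Cdc42bpb the groups overlapped, with siRNA-labelled library 1 the lowest.

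The other hosts of this kind fall into several roles. Slc43a2 encodes a neutral amino acid transporter, and its region held 268 to 345 fragments. The region in Hk1, for a hexokinase, held 178 to 268, and the region in Prkag2, for a regulatory subunit of the AMP-activated kinase, held 205 to 240. Rhbdf2 encodes a regulator of the protease ADAM17 and had 222 to 326 fragments, and Htr1d encodes a serotonin receptor and had 199 to 264. Spidr, Serpinb6a, Sfi1, Medag, Lhfp, Pfdn1, Plec and 3110082I17Rik were further hosts, with between 163 and 317 fragments. Among the regions over starts, Slc3a2 had 204, 230 and 238 fragments in the siRNA-labelled and 345, 330 and 274 in the NC-labelled libraries, with no overlap before or after scaling. Lmna, for the nuclear lamins A and C, had 167, 177 and 220 in the siRNA-labelled and 239, 234 and 217 in the NC-labelled libraries, with overlap. Acot8 had 154 to 225 and Lrrfip1 187 to 264.

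**Figure D1:**
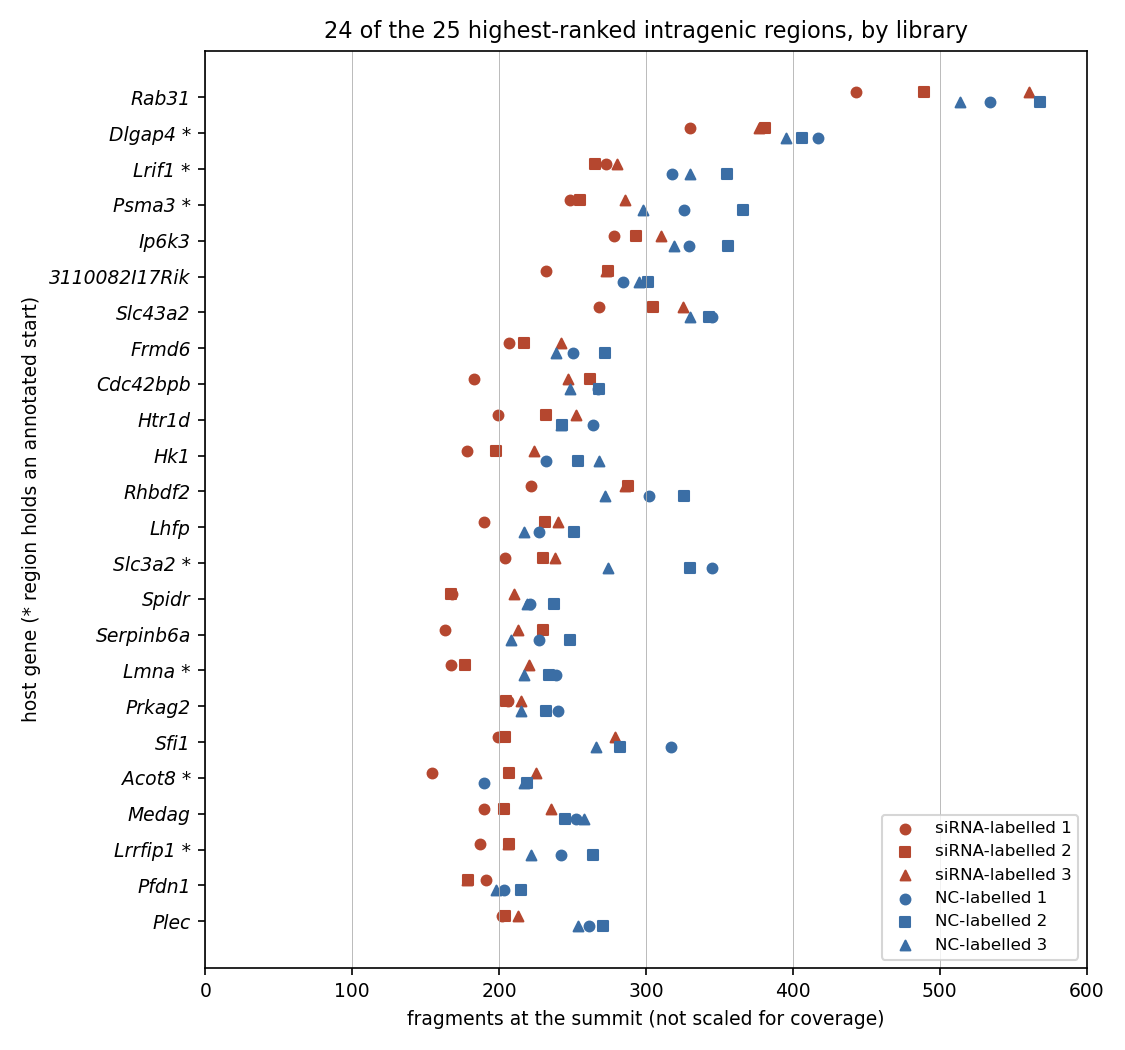
Summit fragments (x axis, not scaled for coverage) of 24 of the 25 highest-ranked intragenic regions, by host gene (y axis, highest rank on top); each point is a library, red for siRNA-labelled and blue for NC-labelled, with a marker shape for each replicate number, and an asterisk marks a region that holds an annotated start. Rab31 stands at 443 to 568 fragments, and NC-labelled points lie mostly to the right of siRNA-labelled ones, the same order as the background coverage.

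High rank came with unlike combinations of fragments and background. The median fold of a region over the 6 libraries ranged between 3.82 and 31.8, with quartiles of 9.88 and 13.9. The local background was taken in multiples of the most common background of its library. It had a median of 11.9 over the 562 regions, where it ranged between 2.75 and 114, and of 4.51 over all shared regions. At the low end of fold stood Plec, which encodes the cytoskeletal linker plectin: its 4 regions lay within a 60.4 kb gene. Of these, 3 had background 83.3 to 114 times the most common one, with folds between 3.55 and 5.82. The strongest of those held 272, 328 and 354 fragments in the siRNA-labelled and 342, 375 and 347 in the NC-labelled libraries. In all, 15 regions had a fold under 7 in every library.

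At the high end, 3 regions had a fold above 20 in every library, namely that of Psma3 and narrow regions in Zc3h7a and Filip1l. The Zc3h7a region spanned 394 bp and its summits lay within 5 bp, with a fold of 24.9 to 37.1. It held 83, 146 and 229 fragments in the siRNA-labelled and 252, 467 and 223 in the NC-labelled libraries. The Filip1l region spanned 350 bp, with a fold of 24.3 to 29.3, and held 85, 119 and 154 in the siRNA-labelled and 163, 199 and 143 in the NC-labelled libraries. Values of Zc3h7a varied widely over the libraries: its highest value scaled for coverage was 3.98 times its lowest, whereas the median ratio was 1.29 over the 562 regions and 1.53 over all shared regions. Miga1 (2.03) was the only other region whose ratio exceeded 2. These regions, and those of Cdk8 and Triobp below, were singled out after their values were seen. No region was removed here for repeated or poorly mapped sequence, and whether such sequence adds to these narrow peaks was not tested.

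Width and summit position were not used by the rule. The merged regions were 350 to 2127 bp wide with a median of 910.5 bp. Zc3h7a, Filip1l and Cdk8 were the only 3 regions with peaks under 400 bp in every library. Peaks in the intragenic regions had a mean of within-library medians of 781 bp, against 872 bp in the 1545 regions of the same percentile at gene ends, a difference of −90.8 ± 11.98 bp (SD over 6 libraries), lower in 6 of 6 libraries. The two-sided exact sign-flip test gave p = 0.03125, the smallest that 6 libraries allow, and 0.125 after Benjamini-Hochberg adjustment over 4 comparisons. Against the 609 distal regions (762 bp), peaks were wider by 19.2 ± 12.5 bp, in 5 of 6 libraries (exact p = 0.0625, adjusted 0.125). Neither difference passed the adjusted threshold of 0.05. The distance of a library's summit from the median summit of the other libraries was 7.33 bp in the intragenic regions, against 9 bp at gene ends (difference −1.67 ± 2.25 bp, lower in 4 of 6 libraries, exact p = 0.125, adjusted 0.167) and 7.83 bp in distal regions (difference −0.50 ± 2.26 bp, exact p = 1).

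Summits of the 562 regions lay closer together over the libraries than those of other intragenic regions. The range of the 6 summits had a median of 76 bp, against 164 bp over the other shared intragenic regions, and stayed within 100 bp in 375 regions (66.7%), against 26.3%. Since strength chose the regions, no test was made. The 3 widest ranges were found in regions over starts: 1226 bp in Rbpj, the DNA-binding factor of the Notch pathway, 670 bp in Triobp and 628 bp in Runx1. In such regions different libraries had their strongest peak at different places.

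The regions were spread along their hosts. For the 415 regions with a host of known strand, the median distance from the host's start was 31.7 kb, or 43.9% of its length, against 46.2% for the other shared intragenic regions. Of these 415 regions, 23.4% lay in the first 25% of the host's length, 34.0% between 25 and 50%, 27.5% between 50 and 75% and 15.2% in the rest. Of the other shared intragenic regions, 21.9, 32.9, 28.1 and 17.1% lay in those stretches. Long genes hosted more often: 78 of 6453 genes of 10 to 30 kb (1.21%), 219 of 5077 genes of 30 to 100 kb (4.31%) and 191 of 1872 genes of 100 to 300 kb (10.2%). Among genes that had any shared intragenic region, the share was 13.0, 12.5 and 16.6% in these classes.

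In 19 genes there were 3 or more of the regions. Zmiz1, which encodes a transcriptional coactivator of the PIAS-like family, held 6 regions, the first 15.3 kb and the last 129 kb from the start of a 209 kb gene. The strongest of them had 172, 172 and 173 fragments in the siRNA-labelled and 220, 214 and 213 in the NC-labelled libraries, and the others ranged between 83 and 160. St3gal1 (a sialyltransferase), Galk2 (a kinase of amino sugars), Eps8 (an actin regulator downstream of the EGF receptor) and Plec held 4 each. In Eps8 all 4 regions were of moderate strength, between 51 and 107 fragments, and in Galk2 between 53 and 125.

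The 14 genes with 3 regions were Rab31, Hk1, Prkag2, Ergic1, Runx1, Ankrd11, Myof, Ctif, Tns1, Bicral, Fyb, Sh3pxd2a, Tex14 and Ext1. In Runx1, a transcription factor of the Runt family, the pair of stronger regions lay at 91.3 and 96.4% of the gene's length, near its far end. The stronger of them held 154, 184 and 205 fragments in the siRNA-labelled and 240, 229 and 263 in the NC-labelled libraries. The third Runx1 region lay over the internal start whose window is printed above and held 74, 85 and 100 in the siRNA-labelled and 88, 117 and 87 in the NC-labelled libraries, with overlap. In Hk1 the strongest region lay 59.2 kb into the gene and a weaker one, with 74 to 119 fragments, lay over an internal start of the gene. Tns1 encodes tensin of focal adhesions and had 71 to 139 fragments over its 3 regions, and Sh3pxd2a encodes a scaffold of podosomes and had 68 to 136. Fyb, an adaptor protein known from T cells and platelets, held 3 regions with 41 to 131 fragments.

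**Figure D2:**
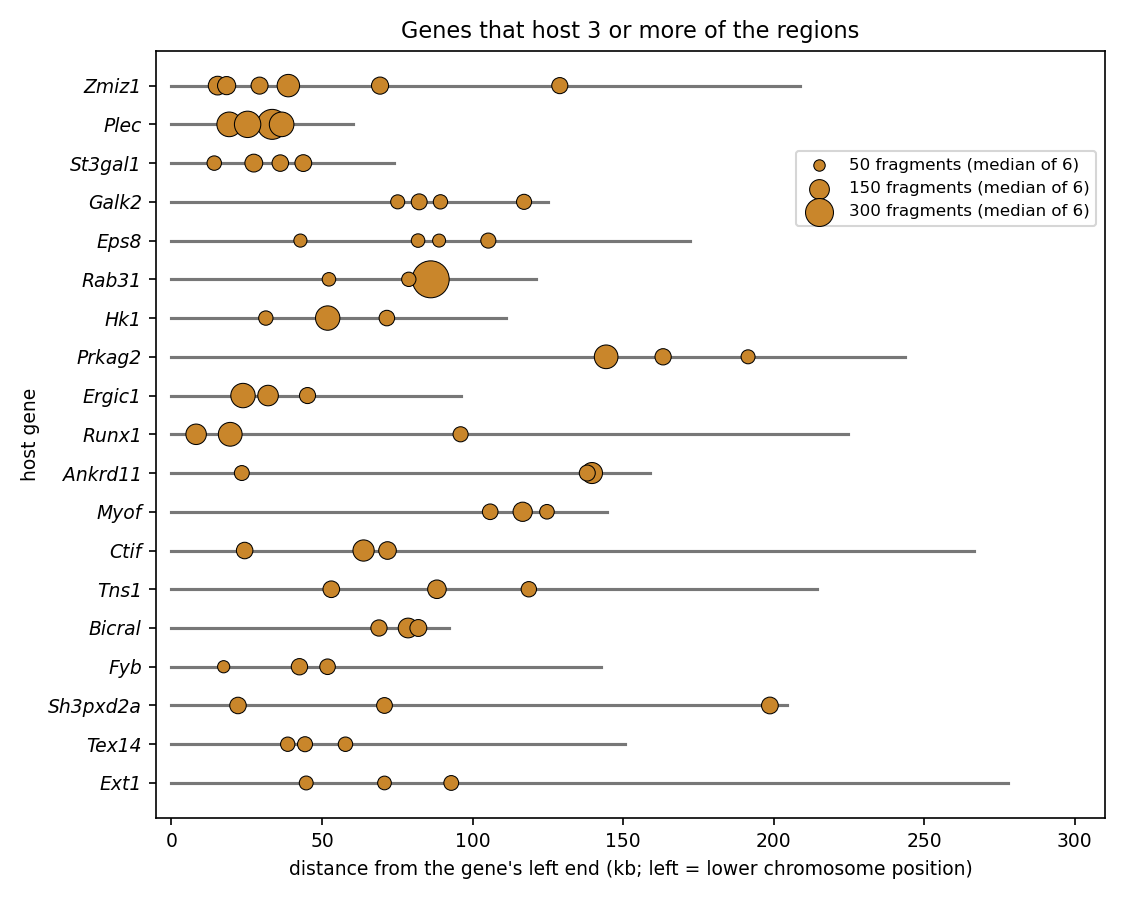
The 19 genes with 3 or more of the regions, each drawn to scale as a line from its left end (x axis, kb, left being the lower chromosome position whatever the strand); circles are regions at their median summit, and circle area is proportional to the median summit fragments over the 6 libraries. Zmiz1 holds 6 regions, the Plec regions lie close together with large circles, and 1 Rab31 region is far larger than the other two.

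Gene ends of the hosts were often occupied as well. A peak within 1000 bp of an end of the gene was present in all 6 libraries for 308 of the 488 hosts (63.1%), against 58.9% of the 3021 genes that held only other shared regions and 49.1% of the 9893 genes with no shared intragenic region. By library the share of hosts with such a peak was 69.3, 71.3 and 71.7% in the siRNA-labelled and 71.7, 74.2 and 70.5% in the NC-labelled libraries. In 97 hosts (19.9%) no library had a peak at either end, against 24.2% of the genes with only other shared regions. Of the 68 of these in the promoter table, 28 had a region over an annotated start, among them Dlgap4, Hk1, Lrrfip1, Txnrd1 (a thioredoxin reductase), Arntl and Rbpj. In these 6 genes the start was the host's own, whereas in some others of the 28 it was that of another gene.

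Of 27 gene lists, the one of cytoskeletal small GTPases and their regulators had the largest share of hosts. Each list is given by its share of genes that could host, beside 3.64% of all 13402 such genes. The share was above that in 24 of the lists. In 24 lists the median gene was longer than that of all genes (31.4 kb), longer genes hosted more often, and the lists were drawn up with earlier results known, so the shares are descriptions. Small GTPases and their regulators hosted in 13 of 40 (32.5%, median length 119 kb). They were the GTPase Rac1, the exchange factors Arhgef3, Arhgef10l, Arhgef12, Dock9, Vav2 and Trio, the activating proteins Arhgap10, Arhgap22, Arhgap23 and Srgap1, the scaffold Iqgap1, and Cdc42bpb. The 2 Arhgap23 regions held 75 to 224 fragments and the Rac1 region 63 to 96.

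Focal adhesion and integrin genes hosted in 7 of 30 (23.3%) as the list was drawn up: Itgb3, Tns1, Tns3, Parva, Bcar1, Nedd9 and Pxdn. Pxdn encodes peroxidasin, an enzyme of the extracellular matrix and not a focal adhesion protein, so 6 of the 7 are of the kind the list names. Actin and contraction genes hosted in 7 of 35 (20%), among them Myh9, Actn4, Cald1, Tpm1 and Synpo. Myh9, the non-muscle myosin heavy chain, stood out with 247 to 317 fragments, against 62 to 150 in Actn4, Cald1, Tpm1 and Synpo. Extracellular matrix genes hosted in 6 of 49 (12.2%), among them Col4a2 of basement membrane collagen (79 to 109 fragments), Fbn1 for fibrillin of microfibrils (52 to 84), Has2 for hyaluronan synthesis (51 to 61) and P4ha2 for collagen hydroxylation (143 to 213). Metalloproteases and inhibitors hosted in 3 of 31 (9.68%): Timp3, Adam19 and Adamts2.

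Transcription factors of mesenchymal cells hosted in 7 of 37 (18.9%): Runx1, Twist2, Ets1, Elk3, Nfic, Meis1 and Foxo3. Nfic, of the nuclear factor I family, had 184 to 225 fragments and the pair of Ets1 regions 98 to 166. Nuclear receptors and corepressors hosted in 4 of 22 (18.2%), among them the glucocorticoid receptor Nr3c1 (119 to 158 fragments), Pparg and Thra. Hippo pathway genes hosted in 5 of 32 (15.6%) with Tead1, Tead3, Vgll4, Axl and Myof, TGF-beta and BMP genes in 5 of 33 (15.2%) with Smad7, Smurf1, Fstl1, Zeb1 and Pmepa1, and Notch genes in 3 of 20 (15.0%), among them Notch2 and Rbpj. NF-kB and inflammation genes hosted in 5 of 32 (15.6%): Nfkbiz, Tnip1, Traf2, Il1rl1 and Osmr, of which the oncostatin M receptor gene Osmr had 83 to 177 fragments. The 2 circadian hosts of 16 listed genes (12.5%), Arntl with 135 to 189 fragments and Tef with 121 to 208, both had the region over an internal start.

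Metabolic genes hosted in 6 of 43 (13.95%): Hk1, Hk2, Slc2a1, Cpt1a, Slc39a14 and Txnrd1. MAPK genes hosted in 5 of 37 (13.5%), among them Map3k4, Map3k20, Map4k5 and Ksr1. The share was 2 of 17 (11.8%) for AP-1, EGR and other immediate-early factors (Atf1 and the actin-sensing coactivator Mrtfa), 3 of 27 (11.1%) for cell cycle and p53 genes, 4 of 40 (10.0%) for GPCR and cyclic nucleotide genes and 4 of 43 (9.30%) for receptor tyrosine kinases and growth factors (Igf1r, Igf2r, Met and Axl). Atf1, Mrtfa and Igf2r are named as the lists were drawn up. Igf2r is not a receptor tyrosine kinase, and Mrtfa is not an AP-1 or EGR factor. The share was 2 of 29 (6.90%) for the list of calcium, potassium and cation channels, whose hosts Atp2b1 and Atp2b4 encode calcium pumps and not channels. It was 1 of 15 (6.67%) for cardiac and skeletal muscle genes (Myom1), 3 of 51 (5.88%) for vesicle traffic and 2 of 36 (5.56%) for the Wnt pathway. Chromatin regulators were near the share of all genes with 3 of 67 (4.48%): Chd9 with 127 to 221 fragments, the ARID family member Arid5b with 72 to 115, and Dnmt1 with 51 to 65 over an internal start. Ubiquitin genes hosted in 2 of 51 (3.92%). None of 19 endothelial, 18 blood and immune or 16 neuronal genes hosted a region.

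**Figure D3:**
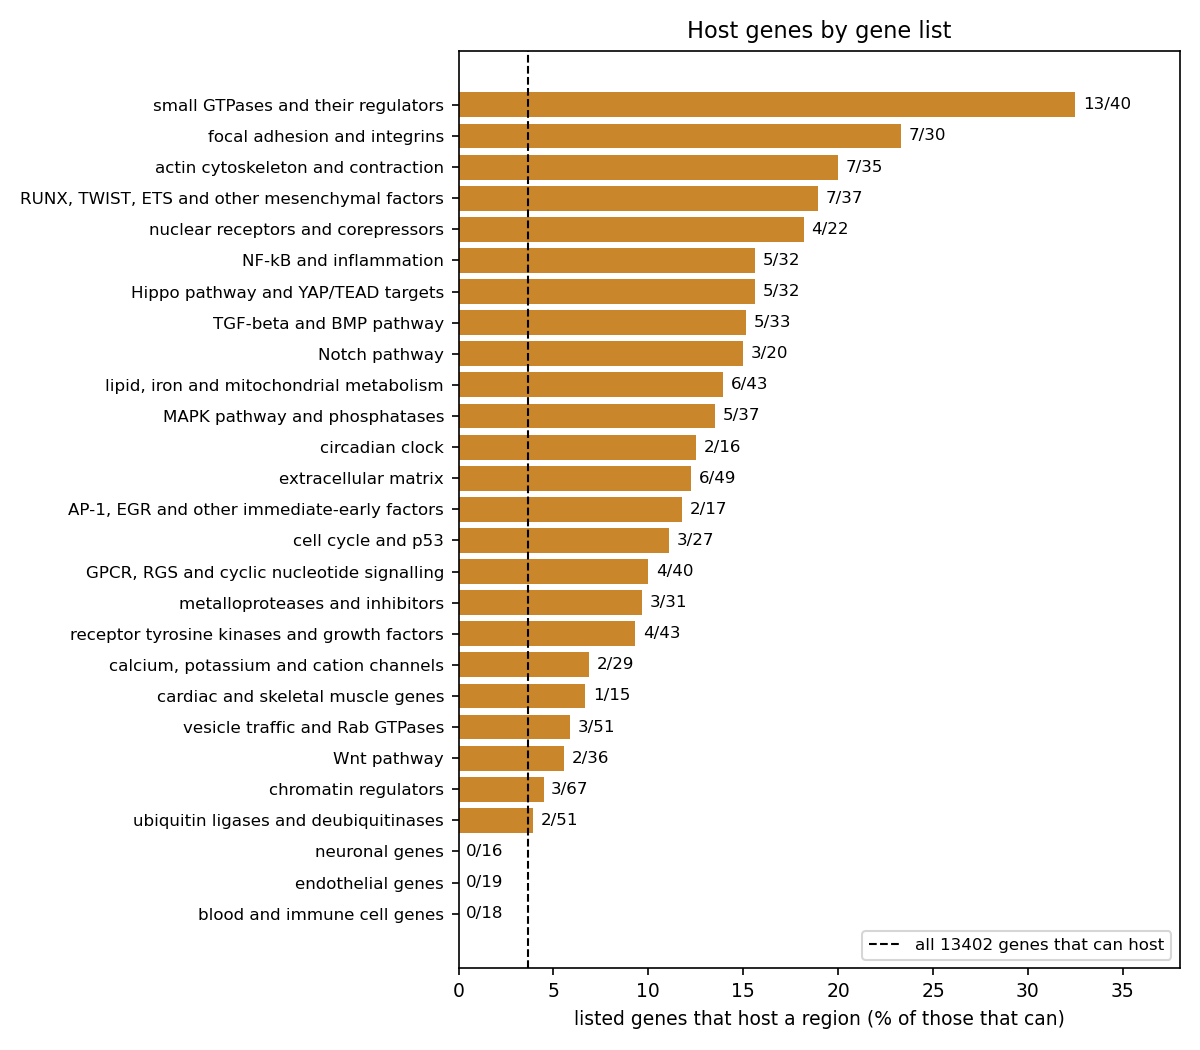
Share of the genes of each list that host at least 1 of the regions (x axis, percent of listed protein-coding genes over 10 kb and at most 300 kb; bars), with counts beside the bars; the dashed line is the 3.64% of all 13402 genes that can host. Small GTPases and their regulators stand highest at 13 of 40, and the endothelial, blood and neuronal lists are at 0; lists differ in gene length.

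Arid3a itself did not host a region of the set. The shared region inside it on chromosome 10 from 79934112 to 79934790, 7.07 kb from the nearer end, stood at percentile 92.8, 94.4 and 94.7 in siRNA-labelled libraries 1 to 3 and 88.1, 93.3 and 93.1 in NC-labelled libraries 1 to 3. NC-labelled library 1 alone kept it below percentile 90. Occupancy of the gene does not measure the amount of Arid3a, so the knockdown itself was not checked here.

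Between the groups, few of the regions were called as changed. Summit fragments were scaled to the median of all shared regions and compared on the log2 scale with limma over all 29602 shared regions. limma draws the variance of each region toward that of regions of similar signal, so each SE and p also rests on other regions. At a Benjamini-Hochberg adjusted p under 0.05, 2 of the 562 regions were higher and 2 lower in the siRNA-labelled libraries (0.712%), whereas 0.0912% of all shared regions were called higher, 0.122% lower and 0.213% either way. The median difference of the 562 was 0.00, the range −0.78 to 0.56, and 85.4% lay within 0.25 of 0, against 70.1% of all shared regions, with a median standard error of 0.12 against 0.20. The unadjusted p was under 0.05 in 99 of the 562 regions (17.6%) and in 3349 of all (11.3%). The scaled values of the groups did not overlap in 62 regions that were higher (11.03%; 7.73% of all shared regions) and 64 that were lower (11.4%; 8.1% of all). Stronger regions have smaller counting error, which was not matched in these shares.

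The Zc3h7a region had the largest fall, −0.78 ± 0.15 (SE; adjusted p = 0.00474), yet its groups overlapped. Its own libraries spread more widely than this SE conveys, with a highest scaled value 3.98 times the lowest. The scaled fragments were 100.8, 160 and 232 in siRNA-labelled libraries 1 to 3 and 226, 401 and 210 in NC-labelled libraries 1 to 3. The call was lost without NC-labelled library 2 (−0.49, adjusted p = 0.224), with background scaling (−0.69, adjusted p = 0.0572) and with the deposited fold as the measure (−0.18, adjusted p = 0.542). Without siRNA-labelled library 1 the difference was −0.47 and still called (adjusted p = 0.0103), and the adjusted p ranged between 3.22e-16 and 0.542 over 13 alternatives. The Dnm1 region, in a gene for the membrane-cutting GTPase dynamin, had 106, 111 and 98.4 scaled fragments in the siRNA-labelled and 142, 159 and 152 in the NC-labelled libraries, with no overlap. It fell by 0.52 on the log2 scale (−0.52 ± 0.10, SE; adjusted p = 0.00759). Leaving out NC-labelled library 1, 2 or 3 lost the call (−0.57, −0.48 and −0.52, adjusted p = 0.0528, 0.120 and 0.0693). So did background scaling (−0.42, adjusted p = 0.0680) and the deposited fold (−0.34, adjusted p = 0.50), and the adjusted p ranged between 0.000735 and 0.50 over 13 alternatives.

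Of the regions that rose, the Sema4b region lies in a gene for a semaphorin, on chromosome 7 from 80207187 to 80207920. It had 88.6, 86.3 and 83.1 scaled fragments in the siRNA-labelled and 58.3, 59.3 and 57.6 in the NC-labelled libraries, a difference of 0.56 ± 0.13 (SE; adjusted p = 0.0318), with no overlap. Every library other than siRNA-labelled library 1 was needed for the call (adjusted p = 0.112 and 0.0646 without siRNA-labelled libraries 2 and 3, and 0.192, 0.132 and 0.141 without NC-labelled libraries 1 to 3). It was also lost with siRNA-labelled libraries 2 and 3 as 1 sample (0.57, adjusted p = 0.0722) and with the deposited fold (0.40, adjusted p = 0.462). Over 13 alternatives the difference ranged between 0.40 and 0.66 and the adjusted p between 0.0141 and 0.462. Ctif encodes a translation initiation factor, and its called region on chromosome 18, from 75502503 to 75503780, had 144, 141 and 150 scaled fragments in the siRNA-labelled and 93.2, 102 and 110 in the NC-labelled libraries. The difference was 0.51 ± 0.10 (SE; adjusted p = 0.0123), with no overlap. The call was lost without siRNA-labelled library 3 (0.49, adjusted p = 0.0529) and without NC-labelled libraries 1 (0.45, 0.192) or 2 (0.52, 0.0678), and with the deposited fold (0.31, 0.522), and the adjusted p ranged between 0.00301 and 0.522 over 13 alternatives. The other Ctif regions were not called.

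The next largest differences did not pass the threshold. They were −0.49 in Cfap69, −0.46 in Ptar1 and −0.42 in Rbms1 (limma adjusted p = 0.101, 0.129 and 0.131), and 0.48 in Shq1, 0.43 in Jcad and 0.42 in Tap2 (adjusted p = 0.101, 0.151 and 0.128). In each of these 6 the scaled values of the groups did not overlap. With the authors' fold over local background as the measure, limma called none of the 562 regions and none of all shared regions, with unadjusted p under 0.05 in 35 and 2394. Without siRNA-labelled library 1, 11 of the 562 were called higher and 13 lower, and without NC-labelled library 2 limma called none, with an unadjusted p under 0.05 in 86. The pair of siRNA-labelled libraries 2 and 3 differed least in the 562 regions, with a mean chi-square of 0.688 per region, against 0.984 and 1.05 between siRNA-labelled library 1 and these libraries, 0.704 to 0.845 between NC-labelled libraries and 0.966 to 1.54 between groups. The lowest value between groups was that of siRNA-labelled library 1 with NC-labelled library 3, below both values of library 1 within its own group. As 1 sample, siRNA-labelled libraries 2 and 3 left 1 region higher and 2 lower.

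**Figure D4:**
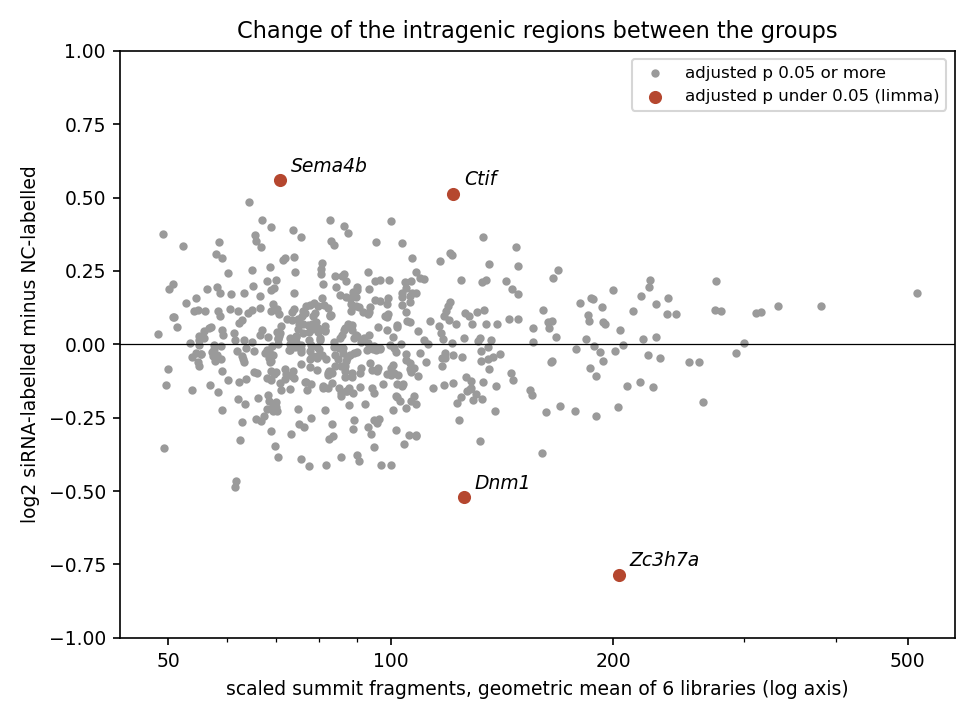
Difference of scaled summit fragments, siRNA-labelled minus NC-labelled (y axis, log2), against the geometric mean of the 6 libraries (x axis, log scale), for the 562 regions; grey points did not pass an adjusted p of 0.05 in limma over all 29602 shared regions, and red points did. Sema4b and Ctif lie above 0 and Dnm1 and Zc3h7a below; 85.4% of the regions lie within 0.25 of 0.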

How the data were processed

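CUT&Tag peaks were deposited as 1 list per library, 3 siRNA-labelled and 3 NC-labelled. Per the submitters' processing notes, Bowtie2, Picard and MACS2 were used with mm10 (versions not given in the sources used here). For each peak the authors deposited a whole-number score, a ratio (the fold over local background), and p-value and q-value as −log10, all from the library's own list. From fold and −log10 p, summit fragments and local background were solved for 100% of peaks within a relative tolerance of 0.002; PCR duplicates and fragment length can affect them, and intervals for single libraries were not given. The merged regions, percentile ranks and gene positions were computed as the report states, with RefSeq tables of GRCm38.p6 (21883 protein-coding genes). Host strand and starts came from the promoter table, which lacks some hosts, among them those of the 26 regions on chromosome 18. Members and gene lists were chosen with earlier results of these data known. All 1117 listed genes of 27 lists matched. Named genes are hosts of the 25 highest-ranked regions, hosts of 3 or more, the 5 largest changes each way, list hosts and Arid3a. limma 3.58.1 (trend; R 4.3.3) was run over 29602 regions after a test on simulated data; sign-flip tests used scipy 1.17.1. Alternatives were scaling, measure, filters, thresholds, windows, a replicate block and leaving out each library; comparing only regions over no start was added after seeing the data. No genome sequence was used here beyond the promoter windows, in which the motifs planned for the summits were searched, with CTCF left out and ETS, SP, NFY, CRE, E-box and TATA letters added after seeing the data. A few named genes are not reported here, and counts include them.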

Additional observations from a re-analysis of the deposited data

Results flagged for a closer look

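The distance of a library's summit from those of the other libraries set 1 library apart. In siRNA-labelled library 1 the intragenic median minus the gene-end median was −6 bp, far from the values of the other libraries, which gave the mean of −1.67 bp its spread. The same library stood apart for the intragenic minus the distal median, at −5 bp. Chance marks about 1 in 20 groups of this size in this way, and the cause was not tested. The peak names, which no comparison used, carry the name of the other group in 6 of 6 lists, while groups here follow the sample labels.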

How the results depend on the processing

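The set held 889 regions at percentile 85, 248 at percentile 95 and 578 to 611 with 1 library left out. Hosts with a peak at a gene end in all 6 libraries were 75.2% with 2500 bp windows and 64.9% with the start alone. The summit spread difference turned to 0.33 bp (gene-end) and 0.83 bp (distal) at percentile 95 (exact test, adjusted p = 0.5625 for both), and the distal one to 1.43 bp with means and to 0.40 bp without siRNA-labelled library 1; with 1 library left out it ranged between −2 and −0.80 bp (gene-end) and between −0.80 and 0.40 bp (distal), and the width differences between −93.7 and −88.3 bp and between 16.2 and 23.4 bp. Among the 562 regions, limma called 6 higher and 0 lower with background scaling, which shifts the median of all regions by 0.10 (log2), 0 and 0 with the deposited fold, 1 higher with siRNA-labelled libraries 2 and 3 as 1 sample, and 0 to 11 higher and 0 to 13 lower with 1 library left out (71 to 140 at an unadjusted p under 0.05). Over all shared regions (27 and 36) the counts were 71 and 8 with background scaling, 0 and 0 with the deposited fold, 10 and 22 with libraries 2 and 3 as 1 sample, 41 higher with at least 20 fragments, 52 and 104 with a peak in at least 3 libraries, and 5 to 154 and 5 to 218 with 1 left out. The replicate numbers did not pair the libraries (correlations of 0.0786, 0.0155 and −0.154); the replicate block gave 61 and 83 calls over all regions, and 2 and 3 among the 562. Of 233 alternative values, 166 were classed as the same as the main value. Differences were classed by direction and side of the threshold, and counts of regions by similar size alone. A count classed as the same can therefore hold other regions. Ranked by fold, the rule gave 383 regions, of which 273 were shared (48.6% of the 562 and 71.3% of the 383). Counting error limits regions near the threshold.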
